A study of Mus musculus with 8 samples.

Results

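The clustered protocadherins are a family of neuronal adhesion proteins encoded side by side on 1 mouse chromosome, and their RNA was followed here in cultured hippocampal neurons. The members are all genes of the count table whose GRCm38 symbol has the form *Pcdha*, *Pcdhac*, *Pcdhb*, *Pcdhga*, *Pcdhgb* or *Pcdhgc* followed by a number, which gave 58 of the 45706 genes. They comprise 14 genes of the alpha cluster (12 numbered genes and the C-types *Pcdhac1* and *Pcdhac2*), 22 genes of the beta cluster, and 22 genes of the gamma cluster (12 of the A type, 7 of the B type and the C-types *Pcdhgc3*, *Pcdhgc4* and *Pcdhgc5*). Thus 5 members are C-types and 53 are other isoforms. Primary neurons were taken from wild-type C57/Bl6 embryos at day 18, grown for 12 to 14 days in vitro, and kept for 4 h with 1 µM melanin-concentrating hormone (MCH), a neuropeptide of the lateral hypothalamus, or with vehicle (H2O). Each treatment had 4 wells, called replicates 1 to 4. The wells came from 2 cultures, each with 2 wells of either treatment. Which replicates belong to which culture is not given in the sources used here, so *P* values measure the spread between these wells, part of which may be technical. The sample labels also carry a tag for an Alzheimer's disease model, whereas the genotype is given as wild type, and the neurons are treated as wild type here.

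Clustered protocadherins span the membrane, carry cadherin repeats outside the cell, and bind preferentially to cells that display the same combination of isoforms. In most neurons, each numbered isoform is switched on in some cells and not in others by choice among many promoters, which involves CTCF, cohesin and DNA methylation, whereas the C-types are expressed more evenly across neurons. The resulting barcode lets a neuron tell its own branches from those of its neighbours (self-avoidance) and shapes dendrites and axons. In the alpha and gamma clusters, a large variable exon is spliced to constant exons common to the whole cluster, which encode the shared cytoplasmic tail, whereas beta genes consist of a single coding exon with no such tail.

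All 58 genes lie on the + strand of chromosome 18, and in the GENCODE vM21 annotation of GRCm38 they extend from base 36930184 (start of *Pcdha1*) to base 37841873 (end of the gamma constant exons). The alpha genes share the end of their constant exons near base 37187657, the beta genes lie between bases 37264938 and 37524479, and the gamma genes start at base 37661793 with *Pcdhga1*. The constant exons hold 2860 exonic bases in alpha and 2119 in gamma. As a median, 53.5% of the exonic bases of an alpha gene other than the C-types were also exonic in another member, as were 44.8% for gamma A, 45.0% for gamma B, 38.5% for the C-types and 0% for beta, where only *Pcdhb21* and *Pcdhb22* overlapped (at most 9.67%). Counted by sequence, a median of 62.6% of the 31-base stretches of an alpha gene, 45.8% for gamma A, 52.3% for gamma B and 11.8% for beta also occurred in another member, more than the shared exonic bases. For the C-types the value was 38.1%, not above that of their exonic bases.

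Reads from these shared stretches do not identify 1 gene, and the authors' quantification with salmon divides them among the genes by an estimate. The estimated read numbers carry a trace of this. Values that were not whole (by more than 0.001 reads) made up 100% of those of alpha, gamma B and C-type genes, 99.0% for gamma A and 54.0% for beta, against 15.7% of all values above 0 in the table. The level of a single alpha or gamma isoform is therefore an estimate, resting on its variable exon, whereas cluster totals depend less on the division. A further limit concerns names. 2 identifiers carry the symbol *Pcdha11*, and ENSMUSG00000007440 starts 117 bases from the RefSeq start of *Pcdha10*, whereas ENSMUSG00000102206 starts 146 bases from that of *Pcdha11*. One overlapping gene on the same strand, *Gm38182*, whose 1530 exonic bases all lie within members, received between 20.4 and 353 reads per well.

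Library totals ranged from 26083936 to 31844861 estimated reads per well, and all 58 members passed the filter on low counts, as did 14962 genes in all. Markers of neurons were abundant in every well, with 6 genes (*Rbfox3*, *Map2*, *Tubb3*, *Snap25*, *Syt1* and *Syn1*) summing to between 5271 and 5834 CPM (counts scaled to a common library size). The wells of replicates 3 and 4 stood apart from those of replicates 1 and 2 in both treatments. They did so along the first principal component after each treatment's mean was subtracted, with 59.8% of the variance within treatments. These sides were read from the counts and not from the labels. The 6 astrocyte markers (*Gfap*, *Aqp4*, *Slc1a3*, *Aldh1l1*, *Sox9* and *Gja1*) summed to between 296 and 397 CPM in replicates 1 and 2 and to between 1312 and 1478 CPM in replicates 3 and 4, and all 6 were higher in each well of replicates 3 and 4. Markers of the oligodendrocyte lineage (56.9 to 67.1 against 125 to 146 CPM, with *Sox10* at 3 reads or fewer and most of the difference in *Olig1*, while *Mbp* and *Pdgfra* overlapped, so that 3 of 6 markers were apart) and of fibroblasts and vessels (17.3 to 23.2 against 51.6 to 56.5 CPM, 5 of 5 markers tested) followed the same division, and those of microglia overlapped (3.26 to 5.07 against 4.34 to 5.55 CPM, with *Tmem119* at 3 reads or fewer). By treatment, the summed markers of each of these cell types overlapped.

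The first question was which clusters and isoforms make up the protocadherin RNA of these cultures. Since the cultures also held glial markers, the part of neurons in these levels was not separated. Levels of different genes are compared per length, in TPM, which scale reads for transcript length and for depth. The family summed to 709 ± 37.4 TPM (mean ± SD over 8 wells), of which the gamma cluster held 64.1%, alpha 22.5% and beta 13.4%. In single wells the gamma cluster summed to between 413 and 502 TPM, alpha to between 154 and 165 TPM and beta to between 90.5 and 100.5 TPM, so that the order of the clusters was the same in all 8 wells. On the TPM scale the gamma C-types (231 ± 31.5 TPM) and gamma A (181 ± 10.1 TPM) each exceeded the whole alpha cluster (159 ± 3.84 TPM). For the gamma C-types this depended on short transcript models, as described below. Gamma B summed to 43.2 ± 4.04 TPM.

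The C-types were the most abundant isoforms, apart from *Pcdhac1*. The 5 genes held 41.3% of the family's TPM, with 37.3 to 43.6% in single wells, and the 53 other isoforms held 58.7%. Per gene this was 58.7 TPM for a C-type and 7.84 TPM for another isoform, a ratio of 7.49. *Pcdhac2*, *Pcdhgc3*, *Pcdhgc4* and *Pcdhgc5* were the top 4 members in each of the 8 wells. Their lowest value in any well was 43.0 TPM, and the highest value of any other isoform was 34.5 TPM (*Pcdhga3* in MCH replicate 1).

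*Pcdhgc5*, which encodes an isoform that binds GABAA receptors and appears late in neuronal maturation, had the highest level on the TPM scale. It was at 114, 105, 108 and 98.4 TPM in vehicle replicates 1 to 4 and at 91.6, 90.9, 117 and 112 TPM in MCH replicates 1 to 4. *Pcdhgc4*, the isoform required for the survival of many interneurons, was at 57.1, 63.7, 75.1 and 90.9 TPM with vehicle and at 57.4, 57.1, 74.7 and 88.2 TPM with MCH. *Pcdhac2*, through which serotonergic axons space themselves, was at 62.1, 63.4, 54.6 and 58.5 TPM with vehicle and at 60.6, 61.6, 54.6 and 56.4 TPM with MCH. For these 3 genes the treatments overlapped, and *Pcdhgc5* was above *Pcdhgc4* in each well.

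*Pcdhgc3*, an isoform that promotes dendrite branching in cortical neurons through the scaffold protein Axin1, had a comparable level but a different pattern among wells. It was at 44.6, 44.8, 67.0 and 66.3 TPM with vehicle and at 43.0, 43.5, 68.8 and 69.0 TPM with MCH, so that replicates 3 and 4 were the high wells in both treatments. *Pcdhac2* and *Pcdhgc3* overlapped in level. *Pcdhac1* was the exception among the C-types, at 3.45 ± 0.33 TPM (SD, n = 8), with rank 47 of the 58 members.

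**Figure D1:**
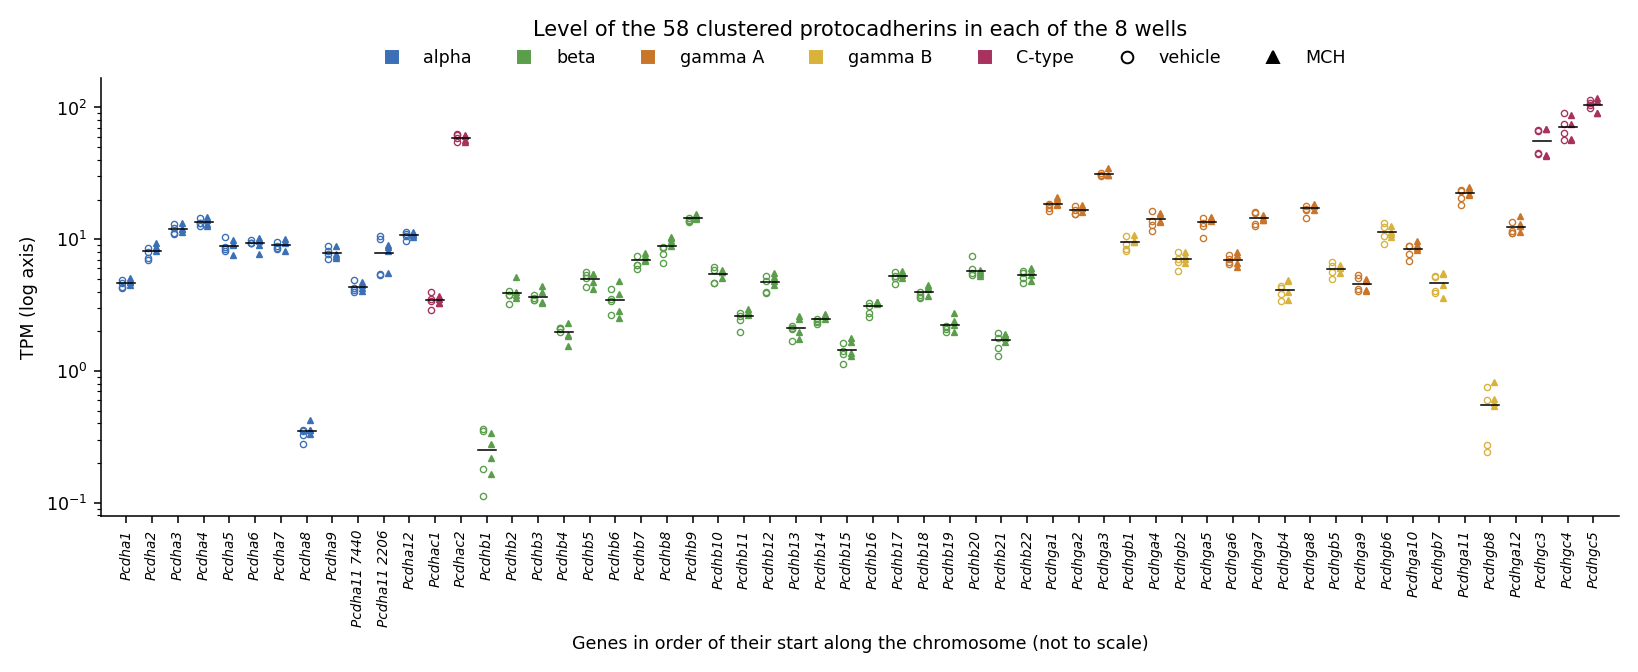
Level of each clustered protocadherin in TPM (log axis) in each well, with genes in order of their start and coloured by class. Open circles are the 4 vehicle-treated wells, filled triangles the 4 MCH-treated wells and lines the mean over 8 wells. *Pcdhgc5*, *Pcdhgc4*, *Pcdhac2* and *Pcdhgc3* lie above all other isoforms, and *Pcdhb1*, *Pcdha8* and *Pcdhgb8* lie below 1 TPM.

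The ranking among these 4 C-types depended on short transcript models. For *Pcdhgc5*, transcripts under 2500 bases took 7.61% of the reads but 53.1% of the TPM, and for *Pcdhgc4* they took 29.9% of the reads and 49.9% of the TPM. When the CPM of each gene were divided by the length of its longest protein-coding transcript instead, an alternative chosen after the data had been seen, the order was *Pcdhac2* (33.2 CPM per kilobase), *Pcdhgc3* (30.1), *Pcdhgc5* (29.7) and *Pcdhgc4* (27.8), and *Pcdhga3* followed with 17.4. On this scale the C-types held 35.3% of the family and exceeded the other isoforms 5.81-fold per gene, and the 4 abundant C-types still lay above all other isoforms in every well (22.5 CPM per kilobase or more against 19.1 or less). The summed gamma C-types, however, lay below the alpha cluster in replicates 1 and 2 of both treatments and above it in replicates 3 and 4. In the mean, gamma A lay above the gamma C-types on this scale.

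Among the other isoforms, levels differed between the classes but also within them. The median member had 8.57 TPM among the 12 alpha genes, 3.79 TPM among the 22 beta genes, 14.3 TPM in gamma A and 5.98 TPM in gamma B. Taken class by class, the highest isoforms were *Pcdhga3* (31.3 ± 1.39 TPM, SD, n = 8), *Pcdhga11* (22.3 ± 2.12) and *Pcdhga1* (18.5 ± 1.42) in gamma A. They were *Pcdhb9* (14.4 ± 0.71) in beta, *Pcdha4* (13.5 ± 0.78) and *Pcdha3* (11.99 ± 0.88) in alpha, and *Pcdhgb6* (11.3 ± 1.33) and *Pcdhgb1* (9.49 ± 0.92) in gamma B. In beta *Pcdhb8* came next with 8.87 ± 1.28 TPM, of which 57.3% fell on a model of 462 bases, and it held rank 42 of 58 by CPM per kilobase of the longest coding transcript. Across the family 6 members had 20 TPM or more, 30 had 5 to 20 TPM, 19 had 1 to 5 TPM and 3 had less than 1 TPM.

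The 3 lowest members came from 3 different clusters. *Pcdhb1*, the first gene of the beta cluster, received between 4 and 14 reads per well (0.25 ± 0.10 TPM), *Pcdha8* between 23 and 37 reads (0.35 ± 0.04 TPM) and *Pcdhgb8*, annotated as a polymorphic pseudogene, between 17 and 59 reads (0.55 ± 0.20 TPM). Neighbouring genes had far higher levels. *Pcdha8* lies between *Pcdha7* (9.07 TPM) and *Pcdha9* (7.88 TPM), and *Pcdhgb8* between *Pcdhga11* (22.3 TPM) and *Pcdhga12* (12.4 TPM). Of the 31-base stretches of *Pcdha8* and *Pcdha7*, 67.3% and 70.2% also occurred in another member, beside a median of 62.6% in alpha. The part of shared reads in their difference was not tested. In bulk RNA, a gene used at a low level by many neurons and one used at a high level by few cannot be told apart.

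The order of isoforms by level was similar between wells. Spearman's rank correlation of the 58 TPM values between pairs of wells lay between 0.970 and 0.992 over 28 pairs, a description across genes that share annotation and length between wells and differ widely in level. Within the alpha cluster *Pcdhac2* held 37.0% of the TPM (35.2 to 39.5% in single wells), and within beta *Pcdhb9* held 15.2% (14.3 to 16.0%). Within gamma *Pcdhgc5* held 23.1% (20.6 to 27.1%), *Pcdhgc4* 15.4% (13.5 to 19.0%) and *Pcdhgc3* 12.1%. A wider range was that of *Pcdha11* ENSMUSG00000102206, with 3.31 to 6.70% of alpha. The share of *Pcdhgc3* was 10.2 to 10.8% in replicates 1 and 2 and 13.7 to 13.9% in replicates 3 and 4.

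The second question was how far the members varied between wells of the same treatment, measured as the coefficient of variation of CPM within a treatment. The median over the members was 9.10%, beside 7.94% over all genes tested, and counting error alone would give a median of 4.90% for the members and 4.09% for all genes. By class the median was 7.61% for the 12 alpha genes, 9.38% for beta, 8.49% for gamma A, 11.4% for gamma B and 9.78% for the C-types. Beta genes had fewer reads (a median of 225 per well, against 684 in alpha and 985 in gamma) and lay closest to counting error, with a median ratio of 1.27. Of the 58 members, 33 varied by less than 2 times the counting error, beside 56.6% of all genes. Members are not replicates of each other, so these medians are descriptions.

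*Pcdhgc3* and *Pcdhgc4* varied far more than their depth accounts for. Their coefficients of variation were 24.5% and 20.7%, beside 1.59% and 1.60% from counting alone. Within a treatment and a side, that is, between replicates 1 and 2 or between 3 and 4, the value was 0.38% for *Pcdhgc3* and 3.67% for *Pcdhgc4*. The median over all members was 6.25% within sides, beside 4.82% over all genes. At the other end *Pcdhb14* (3.25%) and *Pcdhb9* (3.36%) had the smallest spread. Both values, and that of *Pcdhgc3* within sides, lie below counting error. Such low values come from few wells and are imprecise. The largest values were those of *Pcdhb1* (39.8%) and *Pcdhgb8* (36.5%), the members with the fewest reads apart from *Pcdha8*.

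**Figure D2:**
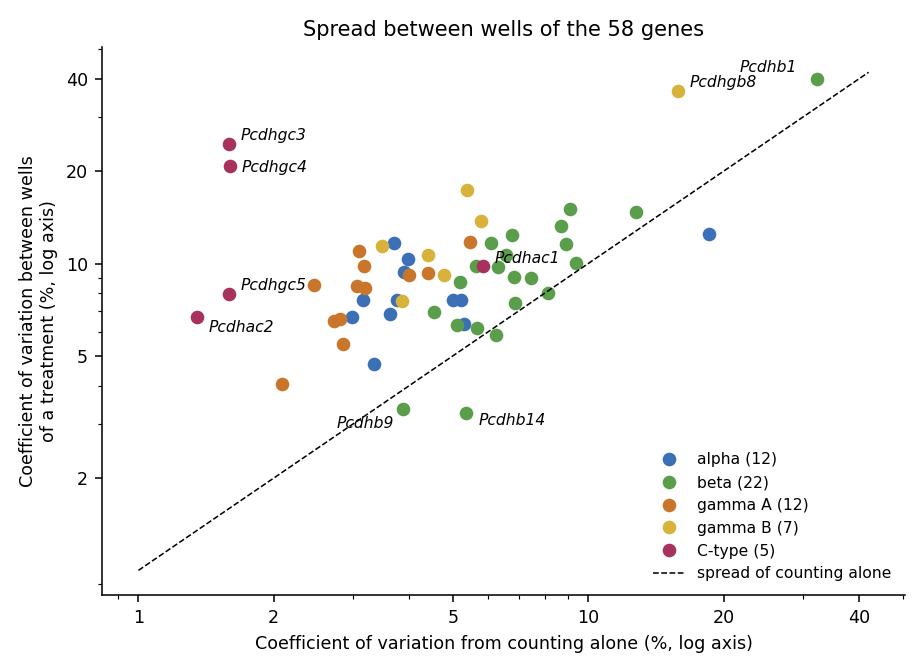
Coefficient of variation of each member between wells of a treatment (mean of the 2 treatments, log axis) against the value that counting error alone would give (log axis), coloured by class. *Pcdhgc3* (24.5%) and *Pcdhgc4* (20.7%) lie far above the dashed line of equal values, and many beta genes lie close to it.

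The division of *Pcdhgc3* and *Pcdhgc4* among wells followed the sides. *Pcdhgc3* was at 114, 114, 169.8 and 169.6 CPM in vehicle replicates 1 to 4 and at 109, 108, 171 and 173 CPM with MCH, a difference between the sides of 0.62 on the log2 scale. *Pcdhgc4* was at 116, 119, 160.4 and 175 CPM with vehicle and at 113, 113, 153 and 168 CPM with MCH, a difference of 0.51. For both genes, all wells of replicates 3 and 4 were above all wells of replicates 1 and 2, as were the astrocyte markers. *Pcdhgc5* was less divided, at 142, 124, 152 and 138 CPM with vehicle and at 133, 134, 153 and 149.6 CPM with MCH. *Pcdhac2* ran the other way, at 208, 214, 181 and 195 CPM with vehicle and at 199.5, 203 and then 179 and 185 CPM with MCH (−0.16 on the log2 scale). *Pcdhac1* lay between 8.80 and 12.4 CPM and overlapped.

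**Figure D3:**
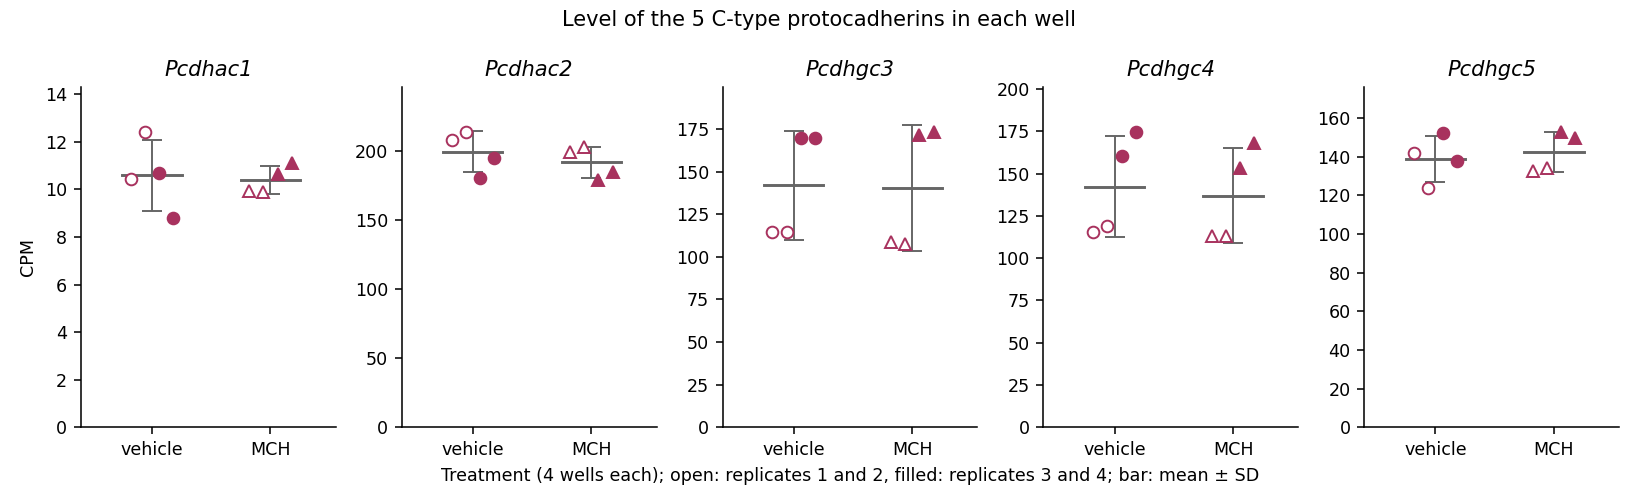
CPM of the 5 C-types in each well (circles: vehicle, triangles: MCH, open symbols: replicates 1 and 2, filled symbols: replicates 3 and 4), with mean ± SD of the 4 wells of a treatment. *Pcdhgc3* and *Pcdhgc4* separate by replicate in both treatments, and no C-type separates by treatment.

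In all, 13 of the 58 members did not overlap between the sides, beside 29.6% of all genes. Of these, 8 were higher in replicates 3 and 4 (*Pcdhgc3*, *Pcdhgc4*, *Pcdhga4*, *Pcdhga7*, *Pcdhga11*, *Pcdhgb2*, *Pcdhgb6* and *Pcdhb15*; all genes, 16.6%) and 5 were lower (*Pcdhac2*, *Pcdha6*, *Pcdhga1*, *Pcdhb12* and *Pcdhb13*; all genes, 13.0%). By cluster these were 7 higher and 1 lower in gamma, 1 higher and 2 lower in beta, and 0 higher and 2 lower in alpha. The summed CPM of gamma were 900 to 954 in replicates 1 and 2 and 1069 to 1110 in replicates 3 and 4, those of alpha 493 to 500.5 and 456 to 469.6, and those of beta overlapped. The markers of astrocytes were higher in the same wells as gamma, and the summed markers of excitatory neurons (3079 to 3466 against 2585 to 2751 CPM) and inhibitory neurons (1855 to 2049 against 1634 to 1785 CPM) were lower there. This held for 3 of 4 excitatory markers, whereas *Prox1* overlapped with the opposite order (50.4 to 64.7 against 64.4 to 69.3 CPM), and for 3 of 3 inhibitory markers. The part of these cells in the gamma and alpha values was not tested, and in bulk RNA fewer cells of a type and less RNA per cell cannot be told apart.

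The third question was whether MCH changed the family within 4 h. No member was differentially expressed. In the quasi-likelihood test of edgeR on 4 against 4 wells, 0 of 58 members had an adjusted *P* value below 0.05, beside 35 of 14962 genes (0.234%), and 0 of 58 had an unadjusted *P* value below 0.05, beside 1272 genes (8.5%). With DESeq2 there were 0 members among the 55 that received an adjusted *P* value, beside 1.25% of genes, and with a length offset 0 of 57, beside 0.886%. The lowest adjusted *P* value of a member in edgeR was 0.651 (*Pcdhb8*).

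The fits that take the sides or the replicate numbers into account called many more genes but no member. With the sides as a batch block, edgeR called 0 of 58 members beside 4.46% of all genes, and with a replicate block 0 of 58 beside 3.98%. The sides were read from the counts of these same wells, so *P* values with the batch block may be too low. Unadjusted *P* values below 0.05 in edgeR were found for 4 members with the batch block (*Pcdhb8*, *Pcdhga1*, *Pcdhga5* and *Pcdhga11*), for 3 with the replicate block (*Pcdhga1*, *Pcdhga5* and *Pcdhga12*) and for 6 without vehicle replicate 3, where the fit without a block had 0. The share of all genes at this unadjusted threshold is not given for these fits, so the counts are not read as a response. The lowest adjusted *P* value of a member over all 15 alternative fits was 0.103, for *Pcdhga1* in edgeR with the batch block. *Pcdhga1* was at 47.8, 48.8, 45.2 and 43.0 CPM with vehicle and at 54.3, 52.0, 47.0 and 47.1 CPM with MCH, with a log2 fold change of 0.12 (95% interval −0.02 to 0.26).

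The intervals show what size of change these wells could have missed. The log2 fold change of a member lay between −0.16 and 0.41. Its 95% interval was within ±0.5 for 53 of the 58 members, beside 10636 of the 14962 genes tested. It was within ±1 for 56 members, beside 13209 of the genes tested. The exceptions to the second bound were *Pcdhb1* (log2 fold change −0.04, interval −1.02 to 0.94) and *Pcdhgb8* (0.41, interval −0.41 to 1.23), which had few reads. For the abundant C-types the estimates were 0.03 (−0.12 to 0.19) for *Pcdhgc5*, −0.06 (−0.19 to 0.08) for *Pcdhac2*, −0.06 (−0.49 to 0.38) for *Pcdhgc4* and −0.02 (−0.55 to 0.51) for *Pcdhgc3*. The wider intervals of *Pcdhgc3* and *Pcdhgc4* come with the spread between sides described above. *Pcdhac1* was estimated at −0.03 (−0.26 to 0.21).

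**Figure D4:**
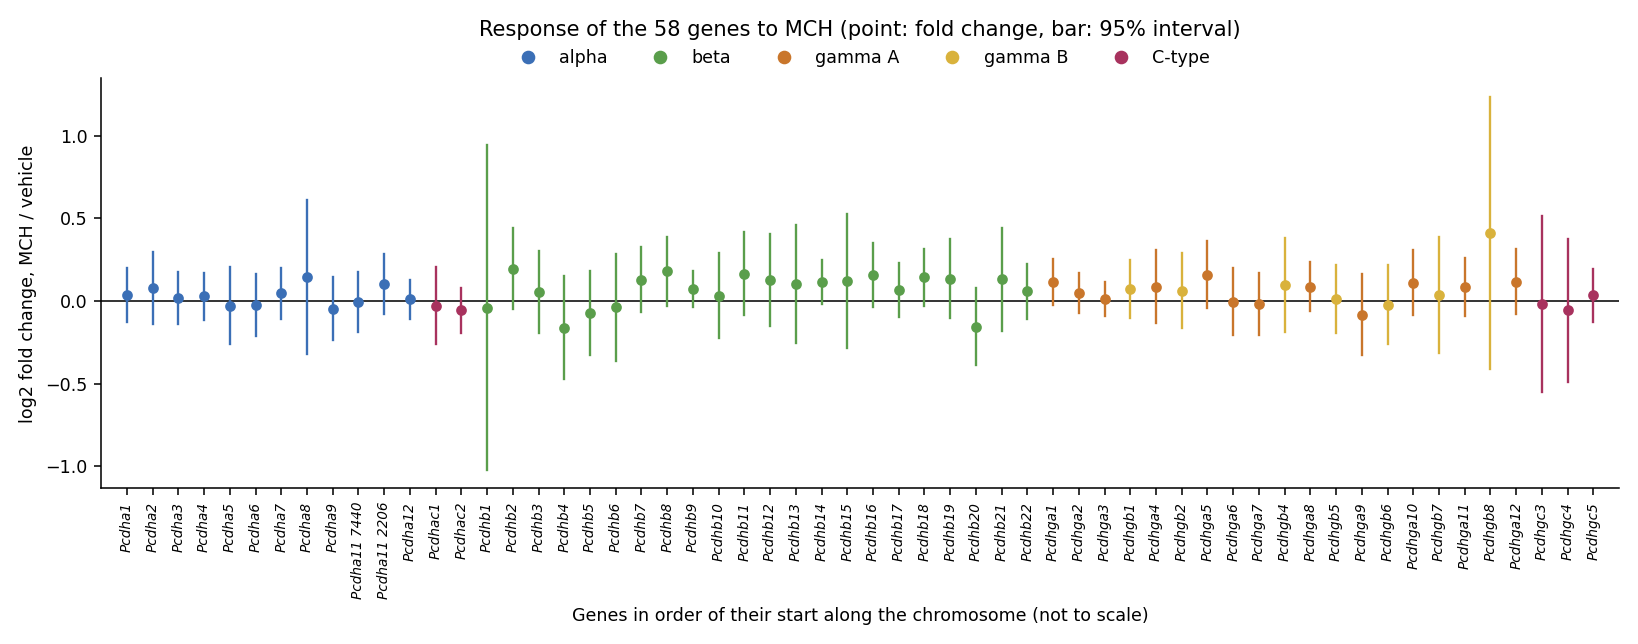
Log2 fold change of each member with MCH over vehicle (points) and its 95% interval (bars), coloured by class, with genes in order of their start. All 58 intervals include 0, and those of *Pcdhb1* and *Pcdhgb8* are the widest.

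The lowest fold changes were those of *Pcdhb4* (−0.16), *Pcdhb20* (−0.15) and *Pcdhga9* (−0.08), and the highest were those of *Pcdhgb8* (0.41), *Pcdhb2* (0.20) and *Pcdhb8* (0.18), all on the log2 scale. *Pcdhb8* was at 6.43, 6.89, 7.86 and 6.98 CPM with vehicle and at 7.83, 7.32, 8.41 and 8.36 CPM with MCH. *Pcdhb2* was at 4.34, 5.11, 5.68 and 4.90 CPM with vehicle and at 5.97, 5.37, 5.95 and 5.65 CPM with MCH. In both genes vehicle replicate 3 lay among the MCH-treated wells, so the treatments overlapped.

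A single member, *Pcdhb14*, did not overlap between the treatments. It was at 12.1, 11.96, 12.2 and 11.4 CPM with vehicle and at 12.8, 12.4, 13.1 and 13.3 CPM with MCH, with a log2 fold change of 0.11 ± 0.06 (SE; 95% interval −0.02 to 0.25) and an adjusted *P* value of 0.663 in edgeR. Every MCH-treated well was thus slightly above every vehicle-treated well, in the member with the smallest spread, a value below counting error. This was 1 of 58 members higher with MCH, beside 3.07% of all genes, and 0 of 58 were lower, beside 2.96%, so non-overlap (6.03% of all genes in either direction) was not more common among the members.

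Small positive fold changes were more common than negative ones. Of the 58 members 41 had a log2 fold change above 0, beside 49.0% of all genes, and the median was 0.06, beside 0.00 over all genes (−0.0027). By cluster the count above 0 was 8 of 14 in alpha (median 0.02), 17 of 22 in beta (0.11) and 16 of 22 in gamma (0.06). The C-types had 1 of 5 above 0 (median −0.03), *Pcdhgc5*, which was below 0 with a length offset (−0.072 in DESeq2 and −0.066 in edgeR), and the other isoforms 40 of 53 (0.07). These shares are descriptions, since members of a cluster share reads and wells, and none of the single values passed the test.

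The totals of whole clusters, which depend less on how shared reads were divided, also differed little between the treatments. The beta genes, which do not share constant exons, summed to 189, 186, 191 and 189 CPM in vehicle replicates 1 to 4 and to 204, 194, 195 and 202 CPM in MCH replicates 1 to 4. Each MCH-treated well was thus above each vehicle-treated well, by 0.07 on the log2 scale in the mean, by 0.09 within replicates 1 and 2 and by 0.06 within replicates 3 and 4. This sum was not tested. Of the single beta genes, 1 of 22 did not overlap, beside 6.03% of all genes in either direction. The alpha total differed by −0.01, the gamma total by 0.03, the C-type total by −0.03 and that of the other isoforms by 0.05 on the log2 scale. In each of these, the treatments overlapped. Taken separately in replicates 1 and 2 and then in 3 and 4, the differences were 0.05 and 0.01 for gamma, −0.05 and −0.01 for the C-types and 0.09 and 0.02 for the other isoforms.

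**Figure D5:**
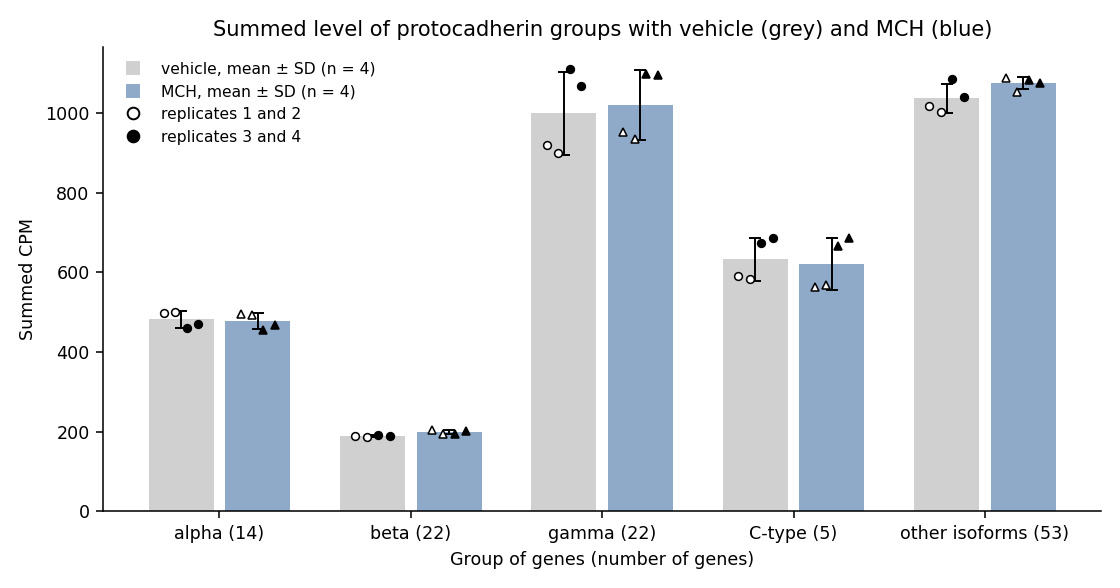
Summed CPM of the alpha, beta and gamma clusters, of the C-types and of the other isoforms with vehicle (grey) and MCH (blue). Bars are mean ± SD of 4 wells, and open and filled symbols are replicates 1 and 2 and replicates 3 and 4. The beta wells do not overlap between treatments (186 to 191 against 194 to 204 CPM), and the gamma and C-type wells divide by replicate.

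The genes that act with the family were also followed. For promoter choice and chromatin, 20 genes were listed, including *Ctcf*, the cohesin subunits and loader (*Rad21*, *Smc1a*, *Smc3*, *Stag1*, *Stag2*, *Nipbl*), *Smchd1*, the DNA methyltransferases and *Setdb1*. All 20 were tested, 0 passed the adjusted threshold in edgeR with or without a block or in DESeq2, and 16 had a log2 fold change above 0 (median 0.08). An unadjusted *P* value below 0.05 was found in edgeR for 7 of the 20, beside 8.5% of all genes. *Smc3* (0.13), *Nipbl* (0.14), *Pds5b* (0.12), *Smchd1* (0.15), *Setdb1* (0.09) and *Dnmt3b* (1.23, with at most 23 reads per well) had positive log2 fold changes and *Dnmt1* (−0.13) a negative one. The wells of *Pds5b* and *Setdb1* did not overlap between the treatments, 2 of 20 genes beside 6.03% of all genes. *Ctcf* itself was at 52.7 ± 3.48 CPM with vehicle and 55.6 ± 3.24 CPM with MCH (SD, n = 4), with an adjusted *P* value of 0.812 in edgeR.

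Among 18 intracellular and membrane partners, which include the kinases *Ptk2* and *Ptk2b*, the subunits of the WAVE actin regulator and the protease *Adam10*, 12 had a log2 fold change above 0 (median 0.02) and 0 passed in edgeR without a block. *Cyfip1*, a WAVE subunit, was at 56.3 ± 6.69 CPM with vehicle and 67.7 ± 3.03 CPM with MCH (log2 fold change 0.27), and *Nlgn1*, a postsynaptic adhesion protein, at 121 ± 4.75 and 134 ± 1.43 CPM (0.14). The wells of both did not overlap, which was 2 of 18 genes beside 6.03% of all genes. Their adjusted *P* values in edgeR were 0.344 and 0.254 without a block, 0.00141 and 0.0144 with the batch block, and 0.00426 and 0.0174 with the replicate block, so these calls, 2 of 18 genes with either block beside 4.46% and 3.98% of all genes, depended on the block.

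Of 12 non-clustered protocadherins, which lie outside the clusters and have their own promoters, 11 were tested and *Pcdh12* (at most 13 reads per well) was not. None passed in edgeR without a block, 7 had a log2 fold change above 0 and the median was 0.04. *Pcdh19*, an adhesion protein mutated in an inherited epilepsy that mainly affects girls, was at 44.6 ± 5.56 CPM with vehicle and 53.8 ± 4.29 CPM with MCH (log2 fold change 0.27). Its wells overlapped between the treatments. Its adjusted *P* value in edgeR was 0.438 without a block, 0.0371 with the batch block and 0.0156 with the replicate block. This call, 1 of 11 genes with either block beside 4.46% and 3.98% of all genes, thus depended on the block. Among the clustered members, 0 of 58 passed with either block.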

How the data were processed

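The libraries were stranded poly-A RNA-seq. The authors mapped and quantified reads with nf-core/rnaseq and salmon on GRCm38 (per the labels and the paper's methods) and deposited estimated counts per gene and, per transcript and well, estimated counts, effective length and TPM, scaled by salmon for length and depth. TPM of a gene are sums over its transcripts here. Names, exons and coordinates came from GENCODE vM21, which may not be the authors' annotation, and named 45143 of 45706 genes.

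Counts were rounded and tested in R 4.3.3 with edgeR 4.0.16 (TMM, filterByExpr with count minimum 10 and total minimum 15, robust quasi-likelihood F test, no block), with Benjamini–Hochberg adjustment over 14962 genes and a threshold of 0.05. DESeq2 1.42.0, length offsets, a replicate block, a batch block (side of the first principal component) and leaving out each well were alternatives. Fits were tested on simulated data. CPM use TMM factors. Intervals cover 95%. Sums over members carry no test. Depth was 26083936 to 31844861 counts per well, and counting error covers sampling of reads only.

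Treatments share replicate numbers. Deviations from treatment means correlated at 0.445 to 0.545 in same-numbered wells, at 0.475 to 0.521 in other pairs of the same side, and at −0.548 to −0.438 across sides. These values group the wells by side, and a shared number added nothing beyond the side. Centring on treatment means by itself makes the values across sides negative in part. The grouping comes from these values and is not stated in the sources used here.

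Named genes were the 5 C-types, the 2 highest in TPM in alpha, beta, gamma A and gamma B, the 3 lowest and 3 highest fold changes, any with an unadjusted *P* value below 0.05, those not overlapping between treatments, and the 2 highest and 2 lowest in spread. *Pcdhga1*, the neighbours of the lowest members, those not overlapping between sides or with an unadjusted *P* value below 0.05 under a block, *Pcdha11* and the related genes given with values were picked with their values known. The members and lists were chosen with earlier results of these data known.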

Additional observations from a re-analysis of the deposited data

Results flagged for a closer look

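*Pcdhga3*, the most abundant isoform other than the C-types, had 1 well apart from the rest of its treatment. It was at 90.1 CPM in MCH replicate 1 and at 79.4 to 80.8 CPM in the other MCH-treated wells, and the gap of that well took 0.869 of the whole range, above the 95% critical value of Dixon's test for 4 samples. In the vehicle-treated wells it was at 82.1, 81.8, 84.0 and 79.8 CPM. Without MCH replicate 1 the log2 fold change of *Pcdhga3* was −0.03, against 0.01 with it. This was 1 of 50 groups of wells checked, and chance flags about 1 in 20.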

How the results depend on the processing

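The count of differentially expressed members was 0 in all 15 alternatives. For all genes it was 35, and 157 with DESeq2, 119 with DESeq2 and a length offset, 7 with edgeR and a length offset, 596 with the replicate block, 668 with the batch block, and 4 to 29 when single wells were left out (4 without vehicle replicate 4, 5 without vehicle replicate 1, 9 without vehicle replicate 2, 7 without MCH replicate 4, 10 without MCH replicate 3 and 12 without MCH replicate 2). The blocks changed no call of a member. Per kilobase of the longest coding transcript, alpha held 25.1%, gamma 61.0%, C-types 35.3% and other isoforms 64.7% of the family. The beta total differed by 0.10 on the log2 scale in TPM, against 0.07 in CPM, and the median spread of the members was 6.25% within sides, against 9.10%. The value within sides comes from pairs of wells, which by itself gives a lower spread than all wells of a treatment. The other alternatives moved the totals, the shares and the spread by less than 1 SD between wells.

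Of 300 log2 fold changes of the 20 named genes under alternatives, 273 kept their direction and 27, of 9 genes, changed it, all without passing the test. With a length offset *Pcdha4* was at −0.0085 in DESeq2 and −0.0030 in edgeR, and *Pcdhgc5* at −0.072 and −0.066. With the replicate block *Pcdhb1* was at 0.0014. When single wells were left out, values ran from −0.024 to 0.081 for *Pcdha3*, from −0.0046 to 0.080 for *Pcdha4*, from −0.10 to 0.064 for *Pcdhac1*, from −0.27 to 0.20 for *Pcdhb1*, from −0.026 to 0.041 for *Pcdhga3*, from −0.10 to 0.060 for *Pcdhgb6*, from −0.13 to 0.092 for *Pcdhgc3*, from −0.16 to 0.061 for *Pcdhgc4* and from −0.013 to 0.087 for *Pcdhgc5*. The causes were not tested. Depth limits *Pcdhb1*, *Pcdha8* and *Pcdhgb8*, which had at most 59 reads per well.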

Other observations

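The identifier ENSMUSG00000102206 of *Pcdha11* gave different pictures on the 2 scales. It was at 13.3, 13.7, 14.8 and 13.4 CPM in vehicle replicates 1 to 4 and at 13.4, 16.9, 14.7 and 14.1 CPM in MCH replicates 1 to 4. In TPM the values were 5.35, 5.46, 10.03 and 10.6 with vehicle and 5.54, 9.11, 8.72 and 8.17 with MCH. The wells with 5.35 to 5.54 TPM were those in which a model of 625 bases received 0 reads, and in the other wells it received 14.7 to 33.6 reads.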
